A study of Homo sapiens with 18 samples.

Results

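The mimic of hsa-miR-708-5p was compared with the mimic of hsa-miR-28-5p, a microRNA of the same family, in MCF10A cells. The comparison used the 6 MCF10A libraries whose labels name a mimic, 3 for each mimic, out of 18 libraries in the series. MCF10A is an immortalized, non-malignant line of human breast epithelial cells. Each mimic was transfected at 30 nM and polyadenylated RNA was sequenced after 72 h, in replicates numbered 7, 8 and 9. The 3 MCF10A libraries with siNT, a non-targeting siRNA given at the same dose for the same time, show the level without a mimic, and untransfected cells were not analysed here. The other 9 libraries hold the same 3 groups in hTERT RPE-1, an immortalized line of human retinal pigment epithelium, with replicates numbered 1, 2 and 3. A mimic is a synthetic RNA duplex introduced with a lipid reagent, so the amount in the cells is set by transfection and not by the cells' own microRNA gene.

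A microRNA guides an Argonaute protein to messenger RNAs, mostly through pairing between its seed (bases 2 to 8 from its 5′ end) and a site in the 3′ untranslated region (3′ UTR), which lowers the level and the translation of the RNA. The mimics share that seed, and the rest of their sequences was not compared here. The interferon response is the cell's antiviral program: sensors of double-stranded RNA such as RIG-I and MDA5 signal for interferon production, interferon binds its receptors, and the JAK kinases activate a complex of STAT proteins and IRF9. That complex binds the interferon-stimulated response element and raises effectors that degrade viral RNA, block its translation or improve antigen presentation. Epithelial cells carry this pathway and can run it without any immune cell.

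The RefSeq sequence of the mature microRNA is shown because the sites discussed later are read against its seed, which stands in capitals. It lies in the gene MIR708 on the minus strand of chr11:79402077-79402099 (GRCh38.p14) and has 23 bases.
hsa-miR-708-5p: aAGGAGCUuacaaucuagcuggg
The mature sequence of hsa-miR-28-5p is named only. The matches searched in 3′ UTRs were AGCTCCT (a 7mer pairing with bases 2 to 8), GCTCCTA (a 7mer pairing with bases 2 to 7 and followed by A), AGCTCCTA (the 8mer, which holds both) and GCTCCT (the 6mer inside all of them).

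Values in the text are scaled read counts, that is, the read count the authors estimated for a gene divided by a factor that adjusts for library size. Between 19.4 and 31.69 M reads fell on genes in the miR-28 libraries, 26.4–31.73 M in the miR-708 libraries and 24.17–30.2 M in the siNT libraries. In these libraries 3 reads are worth a value of 2.49–4.02, and levels at or below that were not read as expression. The 10 basal breast epithelial markers were detected in every MCF10A library. KRT5 for example ran over 74171–89713 with siNT, 56929–66629 with miR-28 and 42285–48844 with miR-708. None of the 10 was called between the mimics (2 had an unadjusted limma p below 0.05, both lower with miR-708). Relative to siNT, 5 were called lower with miR-28 and 6 with miR-708, and 0 higher with either. Of all genes tested, 12% and 17.3% were called lower. Among markers of other cell types, PTPRC, CD3E, VWF, CDH5 and LUM were not in the table used, and PDGFRB reached at most 15.8. The proteoglycan gene DCN, a fibroblast marker, ranged over 1385–3200 with siNT, 3022–10006 with miR-28 and 5306–14095 with miR-708, and was not called between the mimics (log2 difference 0.55). COL1A1 ran over 196–298 with miR-28 and 161–239 with miR-708 (log2 difference -0.33), and PECAM1 (-0.09) and CD14 (0.56) were not called either. Of the 4 other-cell markers tested, 1 had an unadjusted limma p below 0.05, higher with miR-708. The summed level of the 5 other-cell markers that were listed ran over 2167.9–3886.8 with siNT, 3618.9–10463.4 with miR-28 and 5869.9–14616.6 with miR-708, most of it DCN, so the mimics overlapped. Its part in the results was not tested.

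Of 15358 genes listed, 14726 reached a value of 10 in 3 or more of the MCF10A libraries and were tested with limma on log2(value + 1). At a Benjamini-Hochberg adjusted p below 0.05, 228 genes differed between the mimics, 1.55% of those tested. Of these, 189 were higher with miR-708 (1.28%) and 39 were lower (0.265%). The median log2 difference over all genes tested was -0.01, and 2320 genes had an unadjusted p below 0.05. Genes on the interferon lists, which were assembled with earlier results of these data known, made up 102 of the 228 called genes (44.7%), and all 102 were higher with miR-708. The other 126 called genes comprised 87 that were higher and 39 that were lower. The 189 genes that rose became 120 without miR-28 replicate 8, and 111 and 109 without miR-708 replicates 8 and 9. The number of called genes rested on single libraries: it was 383 without miR-708 replicate 7, 135 and 151 without miR-28 replicates 8 and 9, and 130 and 116 without miR-708 replicates 8 and 9. With the replicate number as a block in the fit, 643 genes were called, 429 higher and 214 lower with miR-708.

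The interferon-related genes were far higher with miR-708 than with miR-28. Of 221 genes named on the interferon lists 181 were tested, and 102 of them (56.4%) rose with miR-708 relative to miR-28 while none fell. Among genes on no interferon list, 0.866% were called in either direction, and some of these may also respond to interferon. The median difference of the 102 called genes was 1.87 on the log2 scale, with a range of 0.55 to 6.98, and 83 differed by at least 2-fold. In all 102 the 3 miR-708 libraries lay above the 3 miR-28 libraries, an arrangement found in 10.4% of all genes tested. The call rests on the same values, so this arrangement is not separate support for it. The 79 interferon-list genes that were not called had a median difference of 0.37. Only the miR-708 libraries carried 5 of the 102 past the limit on low values, so these had to differ to be tested.

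The summed level of the 181 interferon-list genes gives the size of the response in each library. It was 312846, 338237 and 302715 in siNT replicates 7, 8 and 9, and 317096, 417381 and 425939 with miR-28. With miR-708 it was 650029, 934943 and 851270. The miR-28 libraries thus ran from the siNT level to somewhat above it, and each miR-708 library stood above all of them. As a share of the library this was 1.08–1.19% with siNT, 1.22–1.61% with miR-28 and 2.46–3.70% with miR-708. Replicate 7 had the lowest level of the miR-708 libraries in 89 of the 102 called genes, with a median gap of 0.46 (log2) to the mean of replicates 8 and 9. In bulk RNA, fewer responding cells and less RNA per responding cell cannot be told apart.

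**Figure D1:**
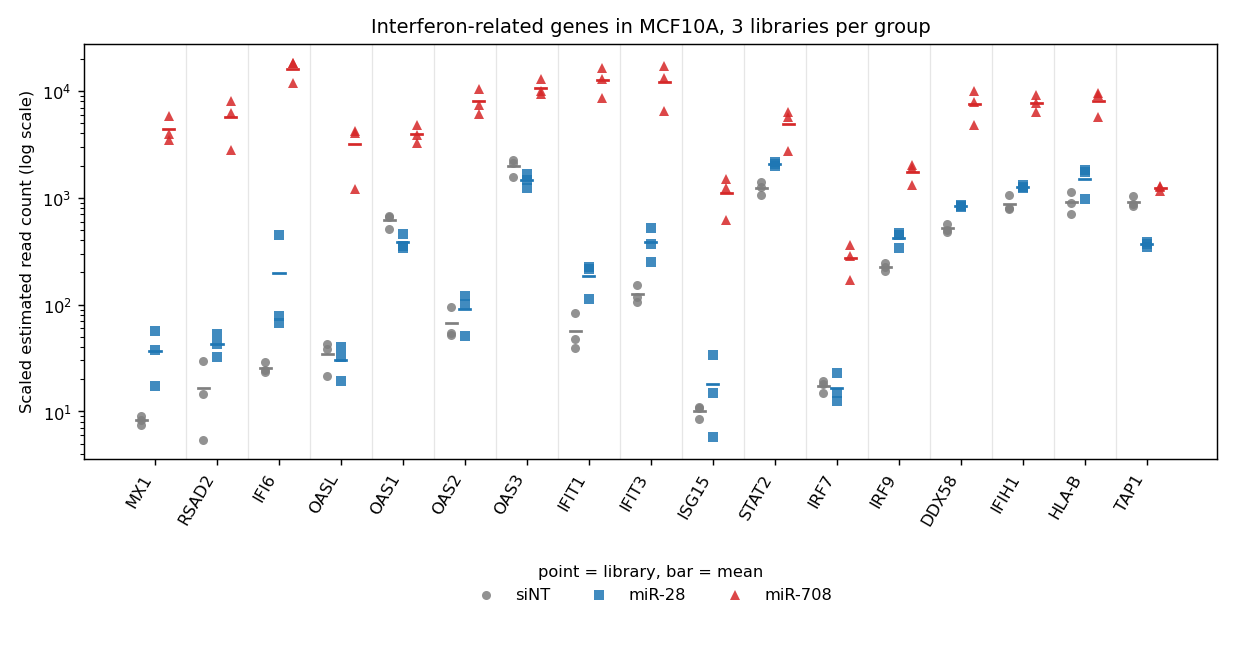
Scaled estimated read count (log axis) of interferon-related genes in the 9 MCF10A libraries, with grey circles for siNT, blue squares for miR-28, red triangles for miR-708 and a bar at each mean. The red triangles stand above the blue squares for every gene shown, from log2 differences of 1.16 for STAT2 to 6.98 for MX1, and for OAS1 and TAP1 the blue squares also lie below the grey circles.

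MX1 encodes a dynamin-like GTPase that traps viral nucleocapsids. Its values were 8.38, 7.50 and 9.13 with siNT, 56.3, 17.4 and 37.5 with miR-28, and 3923, 5891 and 3504 with miR-708. The miR-708 mean was 119.8 times the miR-28 mean (log2 difference 6.98 ± 0.36 SE, adjusted p = 1.12e-06). RSAD2, or viperin, makes a nucleotide that terminates viral RNA synthesis. Its values were 29.9, 5.36 and 14.6 with siNT, 53.6, 32.3 and 42.4 with miR-28, and 2793, 8047 and 6239 with miR-708, a log2 difference of 6.92 ± 0.51 SE (adjusted p = 1.27e-05). IFI6, an interferon-induced membrane protein that limits flavivirus replication, read 28.7, 23.6 and 24.6 with siNT. It read 67.0, 78.8 and 446 with miR-28 and 11899.7, 18122 and 18335 with miR-708. The miR-28 replicate 9 value of IFI6 stood apart from the others of its group but was still far below every miR-708 library, and the log2 difference was 6.88 ± 0.54 SE (adjusted p = 2.16e-05). For these 3 genes miR-28 was itself above siNT, by log2 differences of 1.88 for MX1, 1.56 for RSAD2 and 2.34 for IFI6 (adjusted p = 0.0046, 0.0482 and 0.0111).

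Among the sensors of foreign RNA and their adaptors, 10 of 18 genes tested rose with miR-708 relative to miR-28 and none fell, with a list median of 0.84. DDX58, which encodes RIG-I, had values of 573, 504 and 483 with siNT, 853, 818 and 846 with miR-28 and 4851, 9989 and 7819 with miR-708 (log2 difference 3.11 ± 0.20 SE, adjusted p = 4.8e-06). The 3 groups did not overlap, and the step from miR-28 to miR-708 was larger than the step from siNT to miR-28. IFIH1, which encodes MDA5, a sensor of long double-stranded RNA, read 1229, 1309 and 1257 with miR-28 and 6300.0, 9138 and 7651 with miR-708, a difference of 2.59 ± 0.14 SE (adjusted p = 1.3e-06). EIF2AK2, the kinase PKR that halts translation when it binds double-stranded RNA, differed by 1.40 (adjusted p = 9.65e-05). The endosomal receptor TLR3 differed by 1.13 (adjusted p = 0.0317), a call that was lost in 8 of 18 alternative analyses. DDX60 at 3.32, DHX58 at 2.45, DDX60L at 2.42, ZNFX1 at 1.09, ADAR at 0.85 and TRIM25 at 0.83 complete the called sensors and adaptors.

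Of the receptors, kinases and transcription factors of the JAK-STAT pathway, 5 of 20 tested rose with miR-708 relative to miR-28 and none fell (list median 0.39). IRF9, the DNA-binding subunit of the STAT complex, read 469, 341 and 446 with miR-28 and 1322, 2039.5 and 1885 with miR-708, a difference of 2.05 ± 0.18 SE (adjusted p = 4.83e-05). The siNT libraries of IRF9 (207, 225 and 243) were the lowest and the groups did not overlap. STAT2 read 2092, 2160.3 and 1972 with miR-28 and 2718, 6357 and 5708 with miR-708, a difference of 1.16 ± 0.25 SE (adjusted p = 0.0456), and 12 of 18 alternative analyses did not call it. IRF7, which drives interferon transcription, stood at a mean of 17.4 ± 2.15 (SD, n = 3) with siNT, 14.7, 12.4 and 22.7 with miR-28 and 169, 359.9 and 288 with miR-708 (3.93 ± 0.34 SE, adjusted p = 5.36e-05). Its miR-28 libraries overlapped the siNT libraries. USP18, which removes ISG15 from proteins and restrains the receptor, differed by 3.55. The receptor and kinase genes IFNAR1 (0.04), JAK1 (-0.12) and TYK2 (-0.15) were not called.

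The interferon ligands themselves gave little to read. IFNE, an epithelial interferon, was the 1 ligand tested, with a mean of 56.8 ± 7.01 with siNT, 68.9 ± 11.4 with miR-28 and 55.9 ± 24.5 with miR-708 (SD, n = 3), and it was not called (log2 difference -0.39). IFNB1, IFNL1 and the other ligand genes listed were not analysed here, nor was CXCL10.

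The 2′-5′-oligoadenylate synthetases make the messenger that activates RNase L, and 4 of 5 genes of this group were called, all higher with miR-708 (list median 3.36). OAS2 read 94.6, 51.4 and 53.9 with siNT, 119, 50.6 and 101 with miR-28 and 6142, 10499.5 and 7367 with miR-708, a log2 difference of 6.51 ± 0.33 SE (adjusted p = 1.12e-06). OASL, a relative that acts through RIG-I, read 43.1, 21.4 and 38.3 with siNT, 32.2, 19.1 and 40.4 with miR-28 and 1219.5, 4214 and 4077 with miR-708 (6.51 ± 0.46 SE, adjusted p = 8.48e-06). In OAS2 and OASL the miR-28 libraries overlapped the siNT libraries. OAS1 behaved otherwise, with 668, 682 and 510.3 with siNT, 456, 353 and 338 with miR-28 and 3232, 4794 and 3851 with miR-708. Its level with miR-28 was thus below every siNT library (log2 difference -0.70, adjusted p = 0.0145), and with miR-708 above them (2.67, adjusted p = 2.59e-06). OAS3 differed between the mimics by 2.89 ± 0.16 SE (adjusted p = 1.41e-06), and its difference of -0.43 between miR-28 and siNT was not called.

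The IFIT proteins bind viral RNA ends and the IFITM proteins block viral entry. Of 8 genes tested 6 rose with miR-708 relative to miR-28 (list median 3.06). IFIT1 read 83.8, 39.6 and 47.5 with siNT, 217, 114 and 224 with miR-28 and 8533, 16272 and 12825 with miR-708, a difference of 6.09 ± 0.33 SE (adjusted p = 1.12e-06). IFIT3 read on average 383 ± 139 (SD, n = 3) with miR-28 and 6539.7, 17057 and 13170.0 with miR-708 (4.95 ± 0.33 SE, adjusted p = 6.01e-06). Both genes were higher with miR-28 than with siNT (1.69 and 1.54). IFIT2 differed by 5.30, IFITM1 by 4.67, IFIT5 by 1.44 and IFITM3 by 1.12.

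All 7 genes of ISG15 conjugation, in which the ubiquitin-like protein ISG15 is joined to other proteins, were called higher with miR-708 (list median 3.23). ISG15 read 10.8, 8.57 and 11.0 with siNT, 14.7, 5.80 and 33.5 with miR-28 and 618, 1486 and 1226 with miR-708, a difference of 6.07 ± 0.51 SE (adjusted p = 3.95e-05). The ligases HERC5 and HERC6 differed by 3.80 and 3.23, the conjugating enzyme UBE2L6 by 2.87 and the activating enzyme UBA7 by 1.62. HERC5 and UBA7 were also higher with miR-28 than with siNT, by 1.89 and 0.76 (adjusted p = 0.00488 and 0.0406), whereas ISG15 (0.49) and UBE2L6 (0.13) were not called there.

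Genes of antigen presentation by MHC class I formed a group with smaller differences, and 10 of 18 tested were called, all higher with miR-708 (list median 1.16). HLA-B read 704, 1145 and 886 with siNT, 974, 1743 and 1822 with miR-28 and 5652, 9176 and 9493 with miR-708 (2.44 ± 0.26 SE, adjusted p = 0.000327). Reads of the HLA class I genes are near-identical in places, so the authors' estimates could divide them between members, and HLA-C (1.56), HLA-F (1.63) and HLA-E (1.09) share this uncertainty. B2M, the common light chain, differed by 1.61, the immunoproteasome subunits PSMB9 and PSMB8 by 2.38 and 1.23, and the transactivator NLRC5 by 1.36. TAP1, a subunit of the peptide transporter, read 867, 1039.6 and 839.9 with siNT, 384 and 372 in miR-28 replicates 8 and 9 and lower still in miR-28 replicate 7, and 1159.6, 1279.6 and 1252 with miR-708. Here too miR-28 was below every siNT library (-1.31, adjusted p = 0.000107) and miR-708 was above (0.43, adjusted p = 0.0133), and the difference between the mimics was 1.75 ± 0.11 SE (adjusted p = 4.79e-06). The 5 MHC class II genes tested were not called between the mimics (list median -0.49, 1 with an unadjusted p below 0.05), although 4 of them rose with miR-28 and 3 with miR-708 relative to siNT, where 10.7% and 15.5% of all genes tested rose. CIITA, their transactivator, had means of 195 ± 46.0 with siNT, 1008 ± 228 with miR-28 and 636 ± 252 with miR-708 (SD, n = 3), and its difference of -0.72 between the mimics was not called.

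In the largest list, of other antiviral effectors, 57 of 93 genes tested rose with miR-708 relative to miR-28 and none fell, with a median of 0.99. IFI27, a mitochondrial protein, differed by 6.45, and CMPK2, a mitochondrial nucleotide kinase beside RSAD2 in the same response, by 5.17. IFI44, IFI44L, LAMP3, IFI35, SERPING1, BST2, APOL1, RTP4 and SAMD9L lay between 3.07 and 4.22. SAMHD1, which depletes the nucleotides that viruses need, differed by 2.53, and CD274, the checkpoint ligand PD-L1, by 2.26. At the lower end stood MLKL (0.67), CMTR1 (0.66), WARS1 (0.62) and PNPT1 (0.55). Of the guanylate binding proteins, GTPases that attack vacuoles holding microbes, 2 of 4 tested were called, GBP1 at 4.35 times and GBP3 at 1.98 times its miR-28 mean. Of 4 chemokines and death ligands tested 3 were called, CCL5, CXCL11 and TNFSF10, which encodes TRAIL (1.60). CCL5 and CXCL11 passed the limit on low values only through the miR-708 libraries and so had to differ to be tested, as did BATF2, DHX58 and SERPING1. CXCL11 read 6.70, 0.829 and 2.96 with miR-28, at or near the worth of 3 reads, against 46.6, 79.4 and 58.2 with miR-708, so the size of its difference is poorly set. CCL5 read 5.36, 4.98 and 1.97 with miR-28 and on average 140.3 ± 61.5 (SD, n = 3) with miR-708, with the same limit.

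Set against siNT, the interferon-list genes followed several courses. With miR-28, 42 of the 181 were higher than siNT and 6 lower, where 10.7% and 12% of all genes tested were called in those directions. With miR-708, 143 were higher and 2 lower, against 15.5% and 17.3% of all genes. Both comparisons use the same siNT libraries. With the replicate number as a block, an alternative chosen after seeing the data, 60 were higher and 8 lower with miR-28, and 149 higher and 3 lower with miR-708. Among the 102 genes called between the mimics, 70 were higher than siNT with miR-708 and not called with miR-28, among them OASL, OAS2, ISG15, IFIT2 and IRF7. A further 27 were higher than siNT with both mimics, among them MX1, IFI6, IFIT1, DDX58 and IRF9, and each was higher still with miR-708. Then 4 genes, OAS1, TAP1, N4BP1 and TRIM25, were lower than siNT with miR-28 and higher with miR-708. WARS1, a tryptophanyl-tRNA synthetase induced by interferon, was lower with miR-28 (-0.88, adjusted p = 0.000765) and not called with miR-708 (-0.26). With the block these 4 courses held 56, 40, 5 and 1 genes: OAS3 was then called lower than siNT with miR-28, and 13 genes were called higher with miR-28, among them IFIT2, IFI44, IFI44L, APOL1, GBP1, HLA-B and STAT2.

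The 4 genes below siNT with miR-28 and above it with miR-708 each held at least 1 match of 7 or 8 bases to the shared seed in the 3′ UTR, and their sites are shown for that reason. The genes were singled out after their values were seen. Among all 13090 genes tested with a matched 3′ UTR (88.9% of those tested), 18.7% held such a match. In N4BP1, an inhibitor of inflammatory signalling, the values were 1383, 1329.5 and 1411 with siNT, 1056, 1083 and 1062 with miR-28 and 2253, 2641 and 2452 with miR-708. In TRIM25, the ligase that assists RIG-I, they were 4661, 4149 and 4576 with siNT, 3491, 3374 and 3727 with miR-28 and 6088, 7008 and 5827 with miR-708. In both genes the 3 groups were fully separated, with miR-28 lowest. The sites lie in 3′ UTRs of hg38 as annotated by GENCODE 44, are read on the strand of the transcript, and carry the match in capitals.
OAS1 site, plus strand of chr12:112919626-112919650: tgatccagagaggacaaAGCTCCTc
TAP1 site, minus strand of chr6:32845435-32845459: gtgttacctcctttccaAGCTCCTc
N4BP1 site, minus strand of chr16:48540264-48540288: tctccccgccctcccccAGCTCCTA
TRIM25 site, minus strand of chr17:56890260-56890284: tggctggattttccccaAGCTCCTt
N4BP1 and TRIM25 held a second match each, a 7mer. WARS1, the fifth gene lower than siNT with miR-28, held none. Of the 27 genes higher with both mimics 2 held a match (7.41%), and of the 70 that were called only with miR-708 13 did (18.6%). A match is a run of letters and not a measured binding site, and since the seed is shared it does not by itself distinguish the mimics.

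The interferon-stimulated response element was searched as GAAANNGAAA on both strands of RefSeq promoters, taken as 250 bases before to 50 bases after each start (GRCh38.p14). It stood in 996 of 27305 promoters (3.65%). Only 77 of the 102 called interferon-list genes had a promoter in the table, so a share over the list was void and is not given. The windows below were picked as examples because they hold the element, and they do not show how often called genes hold it. The match stands in capitals.
ISG15, plus strand of chr1:1013380-1013409: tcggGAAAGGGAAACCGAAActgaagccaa
MX1, plus strand of chr21:41420559-41420588: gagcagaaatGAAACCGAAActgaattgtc
IFI6, minus strand of chr1:27672266-27672295: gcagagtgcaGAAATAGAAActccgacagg
TAP1, minus strand of chr6:32853813-32853842: ccgcTTTCGATTTCGCTTTCccctaaatgg
IFIH1, minus strand of chr2:162318686-162318715: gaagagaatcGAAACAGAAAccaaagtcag
GCA, plus strand of the same window: ctgactttggTTTCTGTTTCgattctcttc
ISG15 and TAP1 each show 2 overlapping matches. IFIH1 and GCA start from opposite strands of the same stretch of chromosome 2, so their windows are the same bases read in opposite directions. GCA encodes grancalcin, a calcium-binding protein, stood on no interferon list and had the largest positive difference of the genes outside the lists.

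**Figure D2:**
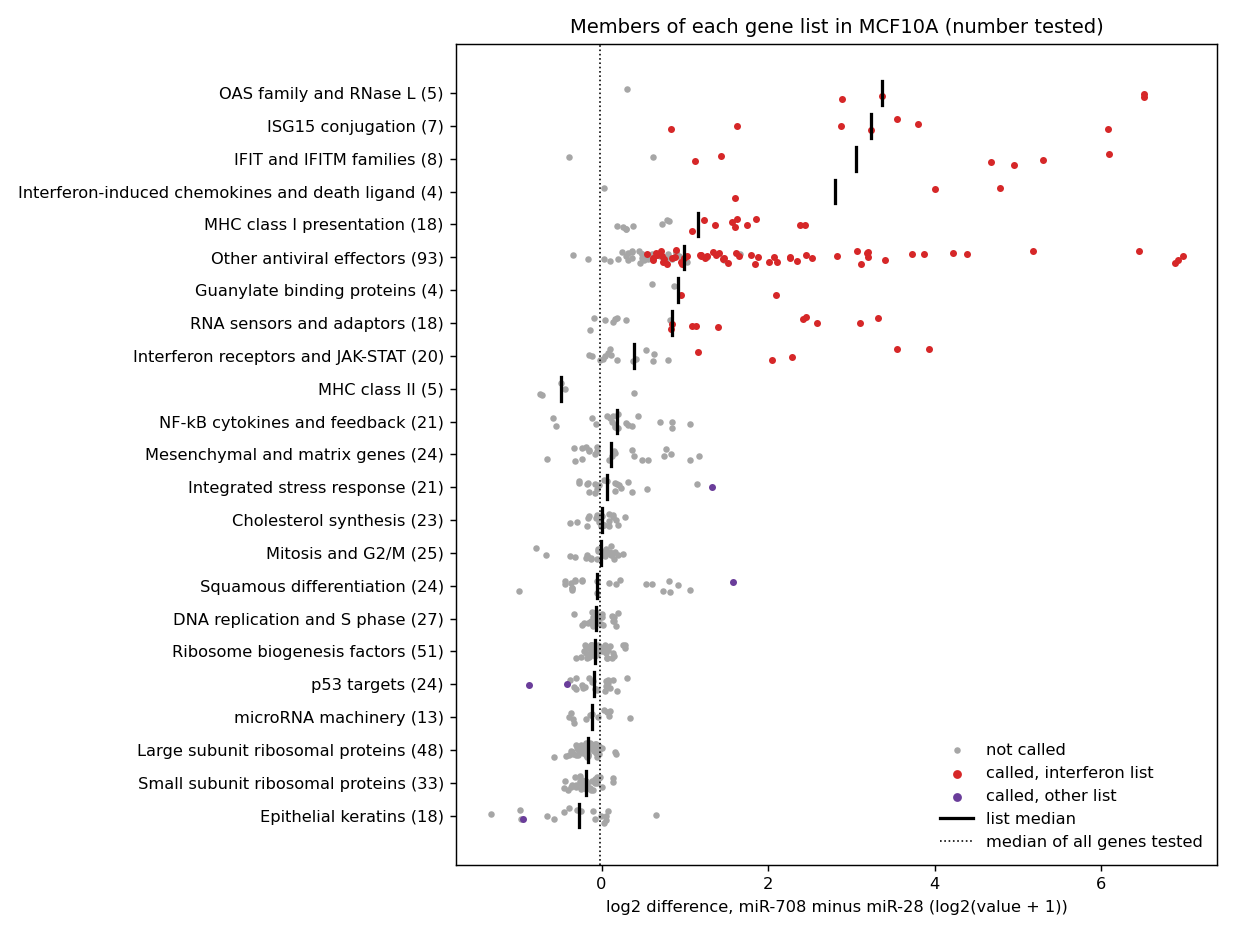
Each point is the log2 difference (miR-708 minus miR-28, on the log2(value + 1) scale) of a gene on the list named at the left, with the number tested in parentheses, black bars for list medians and a dotted line for the median of all genes tested. Called genes are red on interferon lists and purple on the others, and interferon lists reach medians up to 3.36 for the OAS family and RNase L, while the MHC class II median (-0.49) lies left of the dotted line.

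Outside the interferon lists, 87 genes rose with miR-708 relative to miR-28, with a median log2 difference of 0.98 (range 0.38 to 2.90), and 42 differed by at least 2-fold. The lists are not complete, and genes such as IFI30 and HLA-H stood outside them. A gene on no list is therefore not shown to be unrelated to interferon. In 39 genes the level fell, with a median of -0.74 (range -1.52 to -0.42), and 9 differed by at least 2-fold. Only the miR-708 libraries carried 4 of these genes (CALHM5, DDO, HCAR2 and SP8) past the limit on low values, so these had to differ to be tested. In all 126 the libraries of the mimics did not overlap, an arrangement that 10.4% (miR-708 higher) and 9.62% (miR-708 lower) of all genes tested showed. Here too the call rests on the same values, so the arrangement adds no support. The count of 126 rested on single libraries more than that of the interferon genes. It was 269 without miR-708 replicate 7, 50 and 63 without miR-28 replicates 8 and 9, and 51 and 35 without miR-708 replicates 8 and 9, while the interferon count stayed between 79 and 114 when any 1 library was left out. The 39 genes that fell became 117 without miR-708 replicate 7, 15 and 14 without miR-28 replicates 8 and 9, 19 and 7 without miR-708 replicates 8 and 9, and 24 and 21 without siNT replicates 8 and 9.

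**Figure D3:**
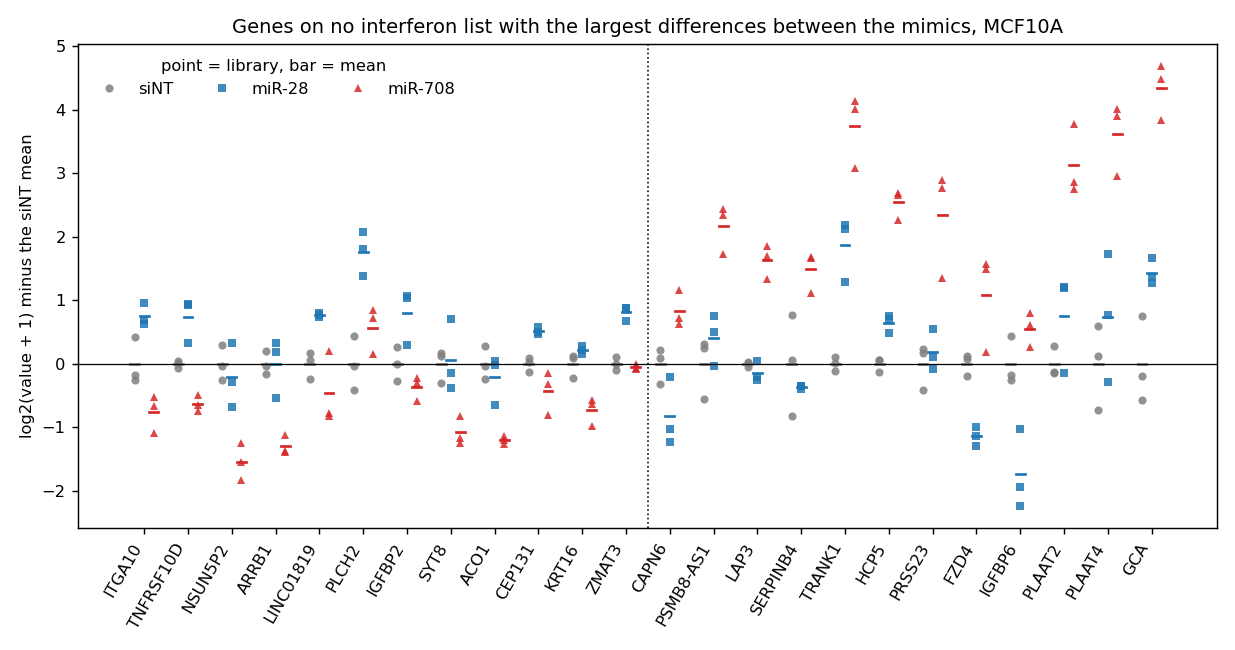
Level of the 12 genes with the largest negative and the 12 with the largest positive difference between the mimics outside the interferon lists, as log2(value + 1) minus the siNT mean, in the 9 MCF10A libraries (points) with group means (bars). Left of the dotted line miR-708 is below miR-28 and right of it above, and genes such as ITGA10 and FZD4 have the mimics on opposite sides of siNT.

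The genes outside the lists that rose most, by the size of their difference, began with GCA. It read on average 12.6 ± 6.81 (SD, n = 3) with siNT, 38.9, 31.5 and 29.6 with miR-28 and 179, 324 and 281 with miR-708 (2.90 ± 0.37 SE, adjusted p = 0.00119). PLAAT4 and PLAAT2, related phospholipid-modifying enzymes, differed by 2.89 and 2.37. HCP5, a non-coding RNA of the MHC region, differed by 1.90, and LAP3, a leucine aminopeptidase that trims peptides, by 1.77 (adjusted p = 1.24e-05). TRANK1 read on average 617 ± 189 (SD, n = 3) with miR-28 and 1387, 2861 and 2638 with miR-708, a difference of 1.88, and was higher than siNT with both mimics. PSMB8-AS1 differed by 1.76, and without a stated strand its reads could not be told apart from those of PSMB8, on the opposite strand.

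IGFBP6, which binds insulin-like growth factor 2, read 699, 459.6 and 433 with siNT, 255, 109 and 134 with miR-28 and 619.8, 792 and 900.2 with miR-708. The miR-28 libraries lay below every siNT library (-1.74, adjusted p = 0.00247), the miR-708 libraries were not called against siNT (0.56), and the mimics differed by 2.29 ± 0.29 SE (adjusted p = 0.00115). FZD4, a Wnt receptor, read 243, 302 and 294 with siNT, 113, 126 and 139 with miR-28 and 317, 830.2 and 785 with miR-708 (2.23 ± 0.30 SE, adjusted p = 0.0019). It was lower than siNT with miR-28 (-1.14) and higher with miR-708 (1.08). PRSS23, a secreted serine protease, read 61.6, 54.1 and 84.6 with miR-28 and 148, 397 and 431 with miR-708 (2.15, adjusted p = 0.0134), SERPINB4, a protease inhibitor of squamous epithelium whose reads may be shared with SERPINB3, differed by 1.85, and CAPN6, a calpain without protease activity, by 1.66. SPRR2E, a cornified envelope protein, was the only called member of 24 squamous differentiation genes (1.58, adjusted p = 0.0178), and ATF3, a stress-induced transcription factor, the only called member of 21 genes of the integrated stress response (1.33, adjusted p = 0.028).

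A group of 17 genes outside the lists rose with miR-708 relative to miR-28 and had another course against siNT: they were lower than siNT with miR-28 and not called with miR-708. NT5C3A, NT5E and E2F6 are described as members of this group that hold a seed match, and were chosen after their values were seen. NT5C3A, a pyrimidine nucleotidase, read 1186, 1116 and 1325 with siNT, 499, 493 and 389 with miR-28 and 1155, 1330.4 and 949.8 with miR-708. NT5E, the surface nucleotidase CD73, read 4286, 2968 and 3248 with siNT, 1760.4, 1723 and 1909 with miR-28 and 3700.0, 3369 and 3871 with miR-708. E2F6, a transcriptional repressor, read 445, 484 and 507 with siNT, on average 271 ± 26.3 (SD, n = 3) with miR-28 and 497, 576 and 497 with miR-708. In all 3 genes the miR-28 libraries lay below the other 6, and siNT and miR-708 overlapped. The differences between the mimics were 1.31 for NT5C3A (adjusted p = 0.000381), 1.02 for NT5E (adjusted p = 0.00112) and 0.95 for E2F6 (adjusted p = 0.00186). Of the 17 genes 7 held a match of 7 or 8 bases (41.2%), against 18.7% of all genes tested with a matched 3′ UTR. The nearer background, all genes lower than siNT with miR-28, was not counted, so this share does not bear on the difference between the mimics. NT5E held another 7mer besides the site shown.
NT5C3A site, minus strand of chr7:33014565-33014589: tgaatgcattgactggaAGCTCCTt
NT5E site, plus strand of chr6:85494647-85494671: ctattttttcactttatAGCTCCTg
E2F6 site, minus strand of chr2:11445384-11445408: tttaccattagactgtgAGCTCCTt

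Among the genes that fell, ITGA10, an integrin subunit that binds collagen, had the largest difference. It read 339, 360.0 and 546 with siNT, 627, 653 and 787 with miR-28 and 189, 256 and 281 with miR-708 (-1.52 ± 0.20 SE, adjusted p = 0.00177). The 3 groups did not overlap, with siNT in the middle, and both mimics were called against siNT (0.76 and -0.76). TNFRSF10D, a decoy receptor for TRAIL, took the same course, with 2358, 2535 and 2481 with siNT, 3077, 4734 and 4679.5 with miR-28 and 1562, 1470.1 and 1747 with miR-708 (-1.36 ± 0.15 SE, adjusted p = 0.000358). These were the only 2 called genes that stood above siNT with miR-28 and below it with miR-708. Both held a seed match, where 18.7% of all genes tested with a matched 3′ UTR held one. The 2 genes were grouped by these same values. ARRB1, the scaffold protein beta-arrestin 1, read 198, 167 and 153 with siNT, 118, 216 and 195 with miR-28 and on average 69.8 ± 7.43 (SD, n = 3) with miR-708 (-1.28, adjusted p = 0.0197), so that miR-28 overlapped siNT and miR-708 lay below both. The matches of ITGA10 (an 8mer) and ARRB1 (a 7mer) are shown to set them beside those of the genes that rose. ARRB1 held another 7mer besides the site shown.
ITGA10 site, minus strand of chr1:145891714-145891738: ggttatgtagcacaaatAGCTCCTA
ARRB1 site, minus strand of chr11:75265318-75265342: ccagcagagtgagctgaAGCTCCTg

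The remaining genes with the largest negative differences were of varied function and mostly less firmly called. KRT16, a keratin of stressed and proliferating epidermis, read 4378, 4446 and 3509 with siNT, 4533, 4952 and 4734 with miR-28 and 2756, 2639.6 and 2073 with miR-708 (-0.94, adjusted p = 0.00186), and was the only called gene among 18 keratins. Of these keratins 5 had an unadjusted limma p below 0.05, all lower with miR-708, beside 2320 of all 14726 genes tested. ZMAT3, an RNA-binding protein of the p53 response, read 4569, 4287 and 4969 with siNT, 8459, 8510.1 and 7353 with miR-28 and 4342, 4569 and 4392 with miR-708 (-0.87, adjusted p = 0.000357). It was higher than siNT only with miR-28. TIGAR, a fructose bisphosphatase also induced by p53, was higher than siNT with both mimics (1.07 with miR-28 and 0.65 with miR-708), and its difference of -0.42 between them (adjusted p = 0.0499) was lost in 13 of 18 alternative analyses. ACO1, the cytosolic aconitase that senses iron, had 0.491 times the miR-28 mean (adjusted p = 0.0142), and PLCH2, a phospholipase C, by -1.19 (adjusted p = 0.037). NSUN5P2, LINC01819, IGFBP2, SYT8 and CEP131 had differences of -1.33, -1.24, -1.17, -1.14 and -0.94 with adjusted p between 0.038 and 0.0497, and each lost its call in 9 to 14 of the 18 alternatives. NSUN5P2 is a pseudogene whose reads may be shared with its parent gene.

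RPS28, MYC and CDKN1A, genes that the study examined, were not called between the mimics in MCF10A. RPS28, a protein of the small ribosomal subunit, read 3589, 3959.6 and 4062 with siNT, 697, 499.8 and 503 with miR-28 and 785, 554 and 532 with miR-708. The 6 mimic libraries lay far below siNT (14.6% of the siNT mean with miR-28 and 16.1% with miR-708), and the difference between the mimics was 0.13 on the log2 scale with a 95% interval of -0.23 to 0.50 (adjusted p = 0.739). MYC differed by -0.21 (interval -0.46 to 0.04, adjusted p = 0.408) and CDKN1A, the cell cycle inhibitor p21, by -0.31 (interval -0.53 to -0.09, adjusted p = 0.181). In hTERT RPE-1, CDKN1A was called lower with miR-708 than with miR-28 (-0.77, adjusted p = 0.00119 from limma), where 11.4% of all genes were called lower. None of the 33 small subunit and 48 large subunit ribosomal protein genes, the 51 ribosome biogenesis factors, the 27 DNA replication genes, the 25 genes of mitosis, the 23 genes of cholesterol synthesis or the 21 NF-kB cytokine and feedback genes tested was called between the mimics by limma. At an unadjusted limma p below 0.05 stood 8 small and 10 large subunit genes, all lower with miR-708. The other counts were 4 biogenesis factors, 1 replication gene, 5 mitosis genes, 0 cholesterol genes and 3 NF-kB genes. Of all 14726 genes tested, 2320 had such a p, in either direction. Likewise 24 mesenchymal and matrix genes (median 0.11) and 13 genes of the microRNA machinery (median -0.11) had no call, with 5 and 4 genes at an unadjusted p below 0.05. The list medians were -0.18 for the small and -0.16 for the large subunit proteins and 0.19 for the NF-kB genes. Only 3 small and 3 large subunit genes had a positive difference between the mimics. Relative to siNT, 9 small and 21 large subunit genes were called lower with miR-28, against 12% of all genes tested. With miR-708, 25 small and 39 large subunit genes were called lower, against 17.3%. Of 24 p53 target genes, 20 were higher than siNT with miR-28 (10.7% of all genes tested) and 18 with miR-708 (15.5%), and 2 were called between the mimics, ZMAT3 and TIGAR, both lower with miR-708 (list median -0.09).

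Genes with a seed match in the 3′ UTR were on the whole a little lower with miR-708 than with miR-28. The median difference was 0.02 for 8422 genes with no match, -0.03 for 2223 genes with only a 6mer, -0.06 for 2123 genes with a 7mer and -0.08 for 322 genes with an 8mer. Relative to siNT the medians for genes with an 8mer were -0.14 with miR-28 and -0.21 with miR-708. In hTERT RPE-1 the corresponding medians between the mimics were 0.03, -0.04, -0.07 and -0.10. Of the called genes outside the interferon lists with a matched 3′ UTR a 7mer or 8mer stood in 18 of 82 that rose (22.0%) and 9 of 37 that fell (24.3%). Among the called interferon genes 19 of 102 held one (18.6%), against 18.7% among all genes tested with a matched 3′ UTR. The median 3′ UTR length was 988 bases for the called interferon genes and 1348 for all genes tested. For the called genes outside the lists it was 1270 where they rose and 2111 where they fell. A longer 3′ UTR has more room for a match, and neither the shares nor the medians were adjusted for length.

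**Figure D4:**
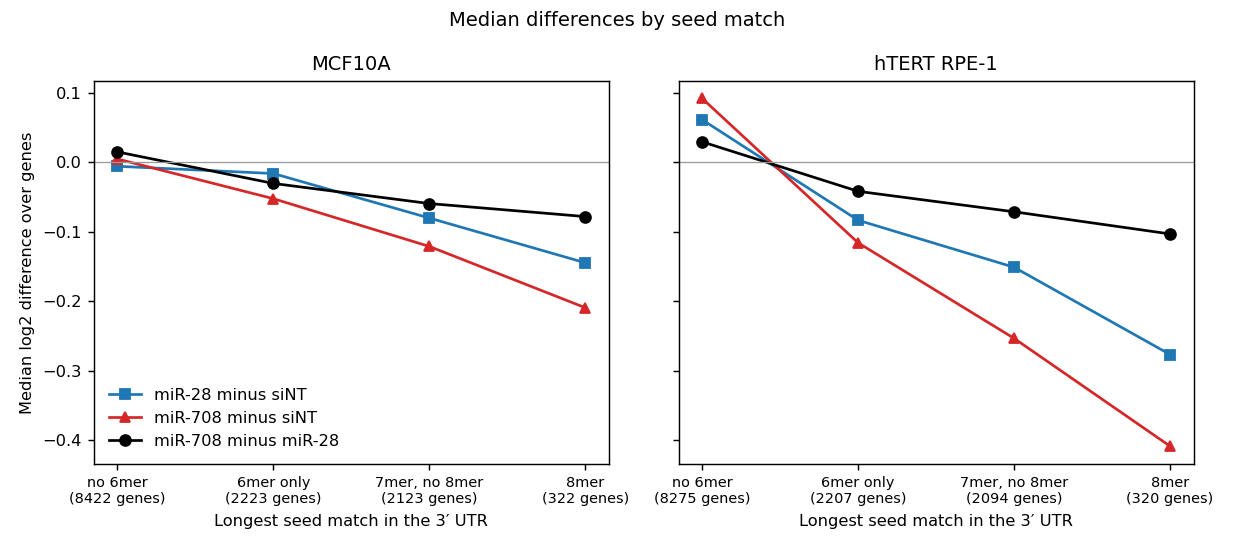
Median log2 difference over genes, by the longest match to the seed in the 3′ UTR, in MCF10A (left) and hTERT RPE-1 (right), for miR-28 minus siNT (blue), miR-708 minus siNT (red) and miR-708 minus miR-28 (black). All 3 lines descend from no match to the 8mer, in MCF10A to -0.14, -0.21 and -0.08.

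The hTERT RPE-1 libraries are independent of the MCF10A libraries and were scaled in a separate table, so the lines are given side by side and the difference between them was not tested. In hTERT RPE-1, 3084 of 14527 genes tested differed between the mimics (21.2%), 1435 higher (9.88%) and 1649 lower (11.4%) with miR-708. The split depended on the scaling: with library-size scaling 4654 genes were called, 84.8% of them higher where the deposited scaling gave 46.5%, and the median of all genes was 0.23. That count of 3084 was 1650 without miR-28 replicate 3, and 1894 and 1509 without miR-708 replicates 1 and 3.

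Of the 102 interferon genes called in MCF10A, 94 were tested in hTERT RPE-1. There 86 were higher than siNT with miR-28 and 91 with miR-708, where 23.3% and 30.9% of all genes were called higher. The median difference from siNT over the 94 genes was 2.17 with miR-28 and 3.03 with miR-708 in hTERT RPE-1, and 0.38 and 2.28 in MCF10A. Between the mimics the median was 0.72 in hTERT RPE-1, with 93 of 94 differences positive, and 1 gene, N4BP1 (0.68, adjusted p = 0.00602), was called. With the replicate number as a block, which pairs these libraries, 5 genes were called, and with library-size scaling 11. The median rested on miR-28 replicate 1, which had the lowest level of its group in all 94 genes: their summed level was 278007 in that library and 1335400 and 900643 in replicates 2 and 3, against 1028720, 1243886 and 1186485 with miR-708. Without miR-28 replicate 1 the median was 0.07, and without miR-28 replicate 2 it was 1.20 with 48 genes called. MX1 read 166, 4746 and 2318 with miR-28 and 2578, 4204 and 3927 with miR-708 in hTERT RPE-1, so that the groups overlapped (1.51, 95% interval -0.55 to 3.58). The size of a difference in these genes was therefore poorly set in hTERT RPE-1.

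**Figure D5:**
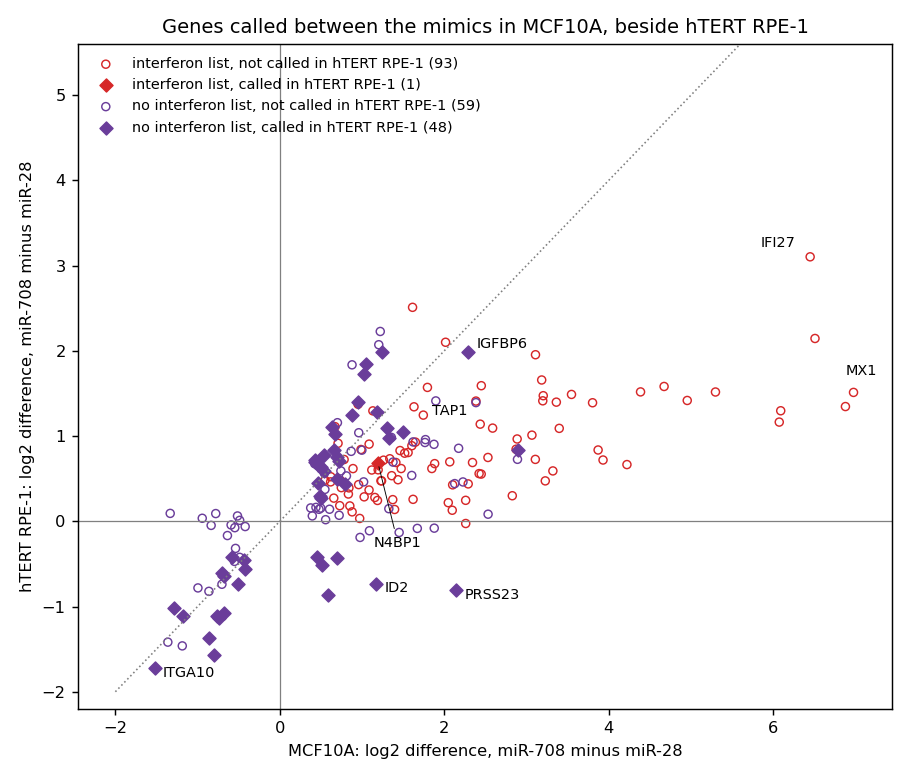
Log2 difference between the mimics (miR-708 minus miR-28) in MCF10A (horizontal) and hTERT RPE-1 (vertical) for the genes called in MCF10A and tested in both lines, red for interferon lists and purple for other genes, filled where called in hTERT RPE-1, with the line of equal values dotted. Most red points lie to the right and below the dotted line, with MX1 at 6.98 and 1.51, and the purple points include ITGA10 at -1.52 and -1.73 and PRSS23 at 2.15 and -0.81.

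For the genes outside the interferon lists, the counts in hTERT RPE-1 are given beside its background. Of the 87 that rose in MCF10A 75 were tested in hTERT RPE-1, and 28 rose there (37.3%, background 9.88%) while 6 fell (8%, background 11.4%). Of the 39 that fell 32 were tested, and 14 fell there (43.8%, background 11.4%) while none rose. The 28 became 52 without miR-28 replicate 2, 18 without miR-28 replicate 3, 18 without miR-708 replicate 3 and 45 with library-size scaling. The 14 became 8 and 7 without miR-28 replicates 1 and 3, 7 and 8 without miR-708 replicates 1 and 3, and 7 with library-size scaling. In hTERT RPE-1 the differences between the mimics were 1.99 for IGFBP6, -1.73 for ITGA10, 1.40 for E2F6, -1.37 for ZMAT3, -1.11 for IGFBP2, 1.09 for NT5C3A, -1.02 for ARRB1 and 0.83 for GCA, each called in the direction seen in MCF10A. TAP1 differed by 1.25 there (interval 0.05 to 2.44, adjusted p = 0.126) and was not called. Among the 6 that were called in opposite directions were the inhibitors of differentiation ID2, with 1.17 in MCF10A and -0.73 in hTERT RPE-1, and ID3, with 0.59 and -0.86. In MCF10A the call of ID2 was lost in 4 and that of ID3 in 9 of the 18 alternative analyses.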

How the data were processed

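The authors trimmed adapters from paired-end 100 bp reads of polyadenylated RNA, aligned them to hg38 with HISAT2 2.1.0 and estimated the counts of RefSeq transcripts by expectation-maximization in Partek. The deposited signal values are those estimated counts divided by a size factor (median of ratios), so they are not whole reads and no count model was used here. The authors' tables of comparisons, made with DESeq2, hold fold changes and p-values that were not used. Groups and replicate numbers came from the labels, and no per-sample column was left unmapped (0).

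Each line was tested separately with limma 3.58.1 (R 4.3.3) on log2(value + 1), with a mean per group, a trend of variance over level, and Benjamini-Hochberg adjustment over all genes with a value of 10 or more in 3 or more libraries. The fit was tested on simulated data. A log2 difference on this scale understates the change of low genes. The study describes the replicates as biological, the labels only number them, and p-values measure the spread between these libraries. In hTERT RPE-1 the replicate numbers paired the mimic libraries (correlations of same-numbered deviations 0.28, 0.20 and 0.13), and in MCF10A they paired the siNT libraries with those of each mimic (6 of 6 over 0.1). Of the 3 same-numbered mimic pairs in MCF10A, 2 were over 0.1, and the main fit in both lines had no block. Seed matches were read in 3′ UTRs of GENCODE 44.

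The comparison and the gene lists were chosen with earlier results of these data known. Named genes were the called members of the interferon lists, the 12 genes with the largest difference in each direction on no such list (mean of at least 100 in the higher group, no overlap), RPS28, MYC and CDKN1A, called members of the other lists, and the 5 genes called in opposite directions in the lines with the largest gap. Some items the rule named are not reported here. Others are said to be chosen after their values were seen. Alternatives were other filters, pseudocounts, scalings, variance priors, a replicate block, mimic libraries only, a 2-fold limit and leaving out each library.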

Additional observations from a re-analysis of the deposited data

Results flagged for a closer look

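In 6 genes the mimics were called in opposite directions in the lines, each higher with miR-708 in MCF10A and lower in hTERT RPE-1. They were 8% of the 75 genes outside the interferon lists that rose in MCF10A and were tested in hTERT RPE-1. Of all genes tested there 11.4% were called lower, so the share of 8% does not stand out. One of the 6 was EXT1, at 0.45 on the log2 scale in MCF10A against -0.41 in the retinal line. The 5 with the largest gap had the 3 miR-708 libraries above the 3 miR-28 libraries in MCF10A and below them in hTERT RPE-1. The log2 difference in MCF10A minus that in hTERT RPE-1 was 2.957 for PRSS23, 1.902 for ID2, 1.447 for ID3, 1.128 for PPP1R3B, which encodes a regulatory subunit of protein phosphatase 1, and 1.025 for STK17A, a kinase linked to apoptosis. The difference between the lines was not tested. Of 18 alternative analyses in MCF10A, the call was lost in 9 for ID3, in 7 for PPP1R3B and STK17A, and in 4 for ID2 and PRSS23. ID2 read 467, 372 and 327 with miR-28 and 821, 944 and 844 with miR-708 in MCF10A (adjusted p = 0.00995 from limma), and its log2 difference in hTERT RPE-1 was -0.73.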

How the results depend on the processing

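The 102 interferon-list calls became 79 to 125 under every alternative. Of these genes 78 kept their call in each of the 18 other than the 2-fold limit in which they were tested. CXCL11, among the 78, was not tested with the filter at 50. Of 31 other called genes that the rule named, 10 kept their call in the same way. In MCF10A, 228 genes were called between the mimics, 150 without a variance trend, 134 with a 2-fold limit and 116 to 383 without 1 library. Those higher with miR-708 were 125 with the 2-fold limit and 109 to 266 without 1 library. Those lower were 15 with mimic libraries only, 21 without the trend, 9 with the 2-fold limit and 7 to 117 without 1 library. Genes on no interferon list were 74, 66, 51 and 35 to 269 under the same settings. Blocking on the replicate number, 643 genes were called in MCF10A, 429 higher and 214 lower, 518 of them on no interferon list. The same-numbered mimic libraries there correlated at 0.12, 0.025 and 0.18, so 2 of these 3 pairs were over 0.1. Among all MCF10A groups 8 of the 9 same-numbered pairs were over 0.1. Of the 18 pairs with different numbers, 1 was over 0.1 and 12 were below 0. The main fit had no block, so its counts, standard errors and p-values leave any such pairing out. In hTERT RPE-1 the 3084 called genes became 4654 with library-size scaling, 700 with the 2-fold limit and 1509 to 4083 without 1 library, and 3315 with the replicate block. The RPS28 log2 difference ranged from -0.0445 without miR-708 replicate 7, where it turned sign, to 0.2909 without miR-28 replicate 7. The cause of these shifts was not tested. Levels near 3 reads set no fold.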
